A study of Mus musculus with 56 samples.

Results

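Livers taken at ZT20, 20 h after lights on and therefore late in the dark phase, were compared between mice on daytime-restricted feeding (DRF) and mice fed only at night (nighttime-restricted feeding, NRF), which served as the reference. At this hour the DRF mice were in their fast and the NRF mice were feeding. The comparison used 8 of the 56 liver libraries of the series, chosen by regimen and time from the sample labels: 4 of DRF at ZT20 and 4 of NRF at ZT20. All were from female C57BL/6J mice, 9 weeks old, and feeding regimen was the only treatment in the labels. They had 7 days of acclimation under 12 h of light and 12 h of darkness with free access to chow, then 7 days of DRF or NRF. Each library came from a different animal, and each was of whole liver, so fewer cells of a type and less RNA per cell cannot be told apart.

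The liver stores fuel while food comes in and releases it during a fast. In the fed state insulin favours glycogen synthesis, de novo lipogenesis and sterol synthesis, the latter pair through the SREBP transcription factors. In the fast, glucagon, glucocorticoids and the nuclear receptor PPARα favour gluconeogenesis, amino acid breakdown, fatty acid oxidation and ketogenesis. The same cells hold a circadian clock, in which the activators ARNTL (BMAL1) and CLOCK drive their own repressors of the PER, CRY and REV-ERB (Nr1d1, Nr1d2) families, and in the liver mealtime is a strong cue for that clock.

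Values are given as scaled counts. These are the whole counts behind the deposited values, divided by a factor per library, so they compare libraries and not genes. Recovered counts ranged from 371 to 689 M in the 8 libraries (M stands for 1000000 counts), scaled counts summed to between 927580 and 1022000, and the most abundant gene took between 8.53% and 10.5% of the total. Correlations across genes were between 0.979 and 0.987 within a regimen and between 0.967 and 0.975 across regimens, and the first principal component, with 40.9% of the variance, put the 4 DRF livers on one side and the 4 NRF livers on the other. The second component (14.8%) spread the NRF livers, with replicate 1 at one end and replicate 4 at the other. Of 10 hepatocyte markers 8 were measured and all 8 were expressed, Alb and Apoa1 among them.

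Among 25393 genes, 3489 (13.7%) differed between the regimens at an adjusted p under 0.05. Of these 1947 (7.67% of all genes) were higher and 1542 (6.07%) were lower under DRF. For 4455 genes (17.5%), called or not, the values of the 4 DRF and 4 NRF livers did not overlap. Differences were taken on log2(scaled count + 1), which understates changes of low genes. On this scale most called differences were modest, with a median size of 0.42 for a called log2 difference. Of the called genes, 136 were at least 2-fold higher on it and 151 at least 2-fold lower. At least 4-fold on it, 15 were higher and 24 were lower. The ratio of the means can be larger, as for Slc2a5, with 5.33 and a log2 difference of 1.95. The median log2 difference over all genes was -0.000707. Protein-coding genes made up 1721 of the higher and 1133 of the lower calls, of 15089 tested. Of 1083 lincRNA genes 49 were higher and 64 were lower, and of 1650 antisense genes 63 were higher and 71 were lower.

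In 23 lists of genes for pathways of the liver, 440 distinct genes were measured and 167 (38.0%) were called, 81 higher and 86 lower under DRF, against 13.7% of all genes. The lists hold many highly expressed genes, so the share is a description of the lists. Called members of the lists for sterol synthesis, lipogenesis and endoplasmic reticulum (ER) chaperones were mainly lower in the fasting DRF livers, and those of fatty acid oxidation, fasting regulators, gluconeogenesis, amino acid breakdown and autophagy mainly higher.

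**Figure D1:**
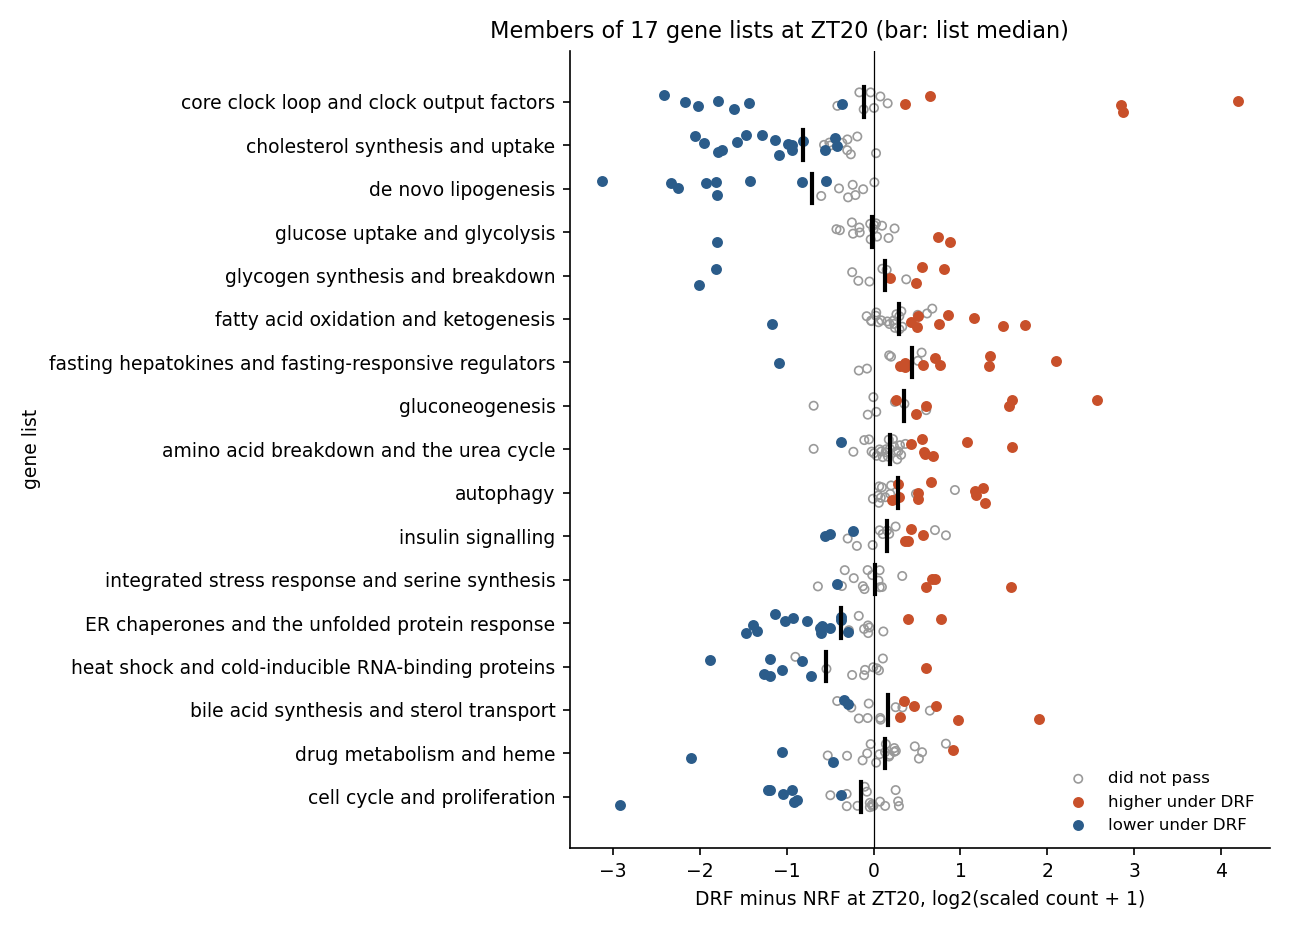
Log2 difference between DRF and NRF at ZT20, on the scale log2(scaled count + 1), for each measured member of 17 gene lists (1 point per gene, black bar for the list median, vertical jitter without meaning). The medians of the sterol, lipogenesis, ER chaperone and heat shock lists were at -0.81, -0.71, -0.38 and -0.54, while clock genes spread from -2.41 to 4.20.

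The clock list held Nr1d1, the largest of the 15 named rises, and differences in both directions. Of 19 measured clock genes, 5 were higher and 7 were lower under DRF (63.2% of the list called, against 13.7% of all genes), and the list's median log2 difference was -0.11. Nr1d1, Nr1d2, Dbp, Tef and Bhlhe41 were higher in the DRF livers. Nr1d1, which encodes the repressor REV-ERBα (chr11:98767932-98775333, GRCm38), had 21.2, 48.1, 24.7 and 22.5 scaled counts in the DRF livers and 0.473, 0.485, 0.722 and 0.548 in the NRF livers. The groups did not overlap, and the ratio of the means was 52.3 (log2 difference 4.20 ± 0.31 SE, adjusted p = 1.42e-13). Its paralogue Nr1d2 had 166, 146, 156 and 182 under DRF and 24.1, 14.99, 26.7 and 21.1 under NRF (2.87 ± 0.17, adjusted p = 9.41e-17). Dbp, a PAR bZIP activator of clock output genes, had 10.7, 14.3, 15.8 and 20.5 under DRF and 1.25, 1.09, 1.09 and 1.45 under NRF (2.85 ± 0.21, adjusted p = 1.53e-13). Tef, another PAR bZIP factor, differed less (0.65 ± 0.18, adjusted p = 0.01003), and the low-level repressor Bhlhe41 was also called (0.36 ± 0.10, adjusted p = 0.0119, all values under 1 scaled count, not called without DRF replicate 2).

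Arntl and Npas2, of the positive arm, and the repressor genes Cry1, Per2, Cry2 and Nfil3 were lower in the DRF livers. Arntl, the obligate partner of CLOCK, had 19.8, 21.9, 17.2 and 7.95 scaled counts under DRF and 71.9, 77.5, 77.9 and 69.8 under NRF. Every DRF liver was thus below every NRF liver (-2.17 ± 0.19 SE, adjusted p = 8.64e-12). Cry1 had 33.0, 31.4, 36.8 and 34.2 under DRF and 154, 194, 204 and 190 under NRF (-2.41 ± 0.20, adjusted p = 1.65e-12). Per2 had 10.3, 15.8, 17.2 and 21.9 under DRF and 75.3, 79.5, 63.4 and 54.2 under NRF (-2.03 ± 0.26, adjusted p = 1.03e-07). Npas2, which can stand in for Clock (-1.61), the repressor of D-box genes Nfil3 (-1.44) and Cry2 (-0.36) were lower as well, with adjusted p between 1.28e-09 and 0.0136. Clock itself did not pass the test, with 102 ± 6.63 scaled counts under DRF and 115 ± 9.86 under NRF (SD, n = 4; -0.16 ± 0.16, adjusted p = 0.589). Per1 (-0.04, adjusted p = 0.975), Per3 (0.16, 0.701), Rora (0.08, 0.591) and Hlf (-0.42, 0.151) did not pass either, although the Hlf values did not overlap between the regimens. The Cry2 call was lost when only the 8 libraries were fitted, on the deposited scale and without DRF replicate 4, and the Tef call on the deposited scale.

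**Figure D2:**
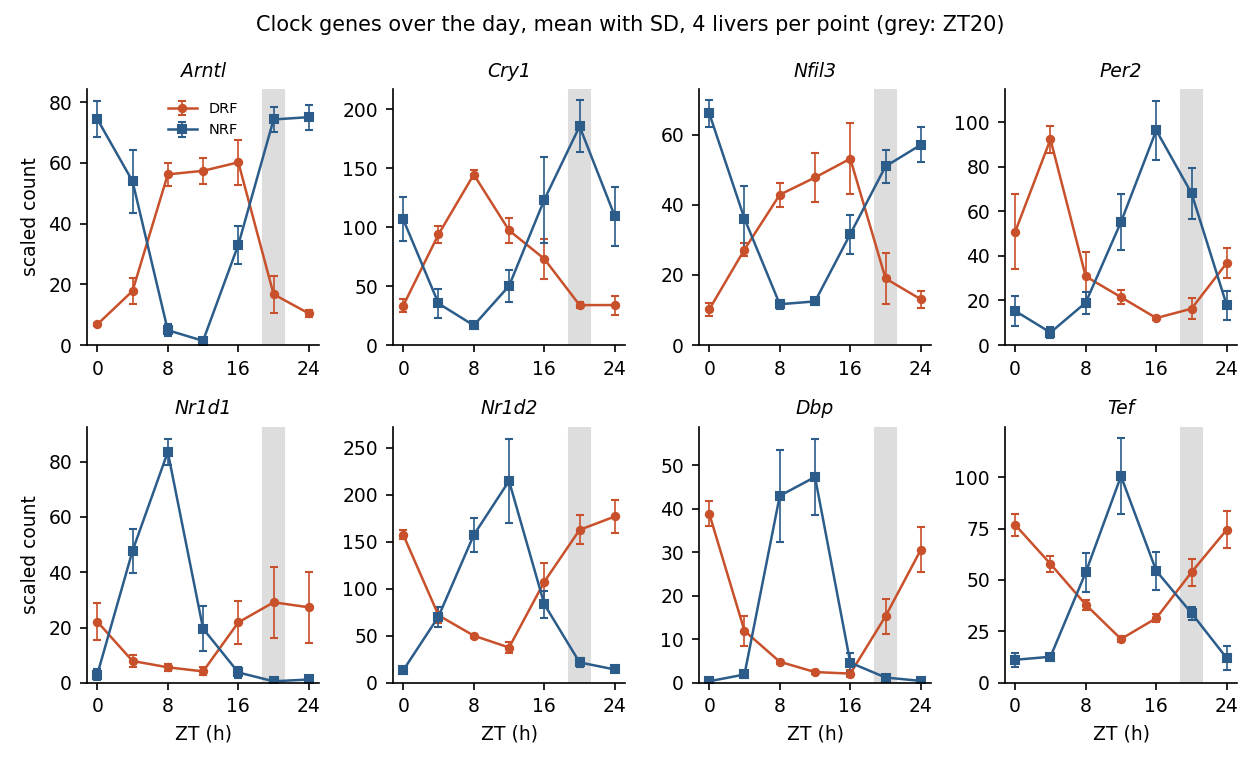
Mean scaled counts with SD (4 livers per point) of 8 clock genes at each sampled ZT under DRF (circles) and NRF (squares), with ZT20 shaded. At ZT20 the means were 16.7 under DRF and 74.3 under NRF for Arntl, 33.9 and 186 for Cry1, and 163 and 21.7 for Nr1d2.

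A sampled time fixes where on its daily curve a gene is caught, and the neighbouring times show which of these differences held. At ZT16, 4 h earlier, Arntl was on the other side, with 60.1 scaled counts under DRF and 33.0 under NRF (log2 difference 0.85 ± 0.19 SE at ZT16). The difference between both times passed the test (adjusted p = 5.57e-11). Npas2 (1.67 at ZT16), Nfil3 (0.73) and Dbp (-0.82) also had the opposite sign at ZT16, with adjusted p between 2.29e-13 and 1.08e-08 for the change from ZT16 to ZT20. Nr1d2 was at 107 and 83.5 at ZT16, a log2 difference of 0.36 there against 2.87 at ZT20 (adjusted p = 2.04e-10). At ZT24 the Per2 difference had turned to 1.06 ± 0.26 (36.9 under DRF, 17.7 under NRF; adjusted p = 5.45e-07 for ZT20 against ZT24). Per3 and Hlf, which did not pass at ZT20, were at 3.18 and 1.07 at ZT24 (adjusted p = 1.55e-09 and 0.000718 for the change), and Cry2 was at 0.56 (0.000152). Dbp and Tef were further apart at ZT24 (4.45 and 2.66, adjusted p = 0.00128 and 2.87e-06). In the clock list 10 of 19 genes differed between ZT20 and ZT16 and 9 of 19 between ZT20 and ZT24, against 5.29% and 1.18% of all genes (1344 and 300 of 25393).

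Short stretches of promoter are shown for 6 called clock and sterol genes whose window held a known binding motif, so that a reader can see the letters the clock and SREBP factors are known to bind. Sequences are from RefSeq (GRCm38.p6) and cover 250 bases before to 50 after each annotated start; 111 of 133 genes considered for the text had an entry. Each is written 5′ to 3′ on the gene's strand, with the motif in capitals.
Arntl, chr7:113207531-113207557, + strand, TAGGTCA (core of the RORE, bound by ROR and REV-ERB) from base 31 of the transcript: aggcagaaagTAGGTCAgggacggagg
Nfil3, chr13:52981040-52981091, - strand, the same core on the other strand, 12 bases before the start: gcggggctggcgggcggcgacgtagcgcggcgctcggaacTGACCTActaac
Cry1, chr10:85185069-85185154, - strand, CACGTG (E-box, bound by CLOCK and ARNTL) 60 bases before the start: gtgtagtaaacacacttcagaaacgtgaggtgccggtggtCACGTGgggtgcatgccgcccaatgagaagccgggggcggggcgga
Tef, chr15:81802506-81802591, + strand, E-box 127 bases before the first of 2 starts: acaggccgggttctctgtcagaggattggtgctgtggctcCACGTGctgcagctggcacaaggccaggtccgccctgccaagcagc
Insig1, chr5:28071271-28071356, + strand, E-box 101 bases before the start: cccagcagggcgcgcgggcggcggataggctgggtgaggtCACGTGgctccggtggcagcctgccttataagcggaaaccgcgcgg
Hmgcs1, chr13:119690174-119690262, + strand, TCACNCCAC (sterol response element, SRE, bound by SREBP) 137 bases before the start: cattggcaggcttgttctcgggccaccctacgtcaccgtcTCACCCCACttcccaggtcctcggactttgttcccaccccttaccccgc

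Searched on both strands, the E-box CACGTG was in 7.15% of all 32851 promoter windows and in 8.99% of those of tested genes. Windows of genes called higher under DRF held it in 12.0% and those of genes called lower in 10.5%. The RORE core TAGGTCA was in 2.61% of all windows, the cAMP response element TGACGTCA in 1.79%, the SRE in 1.24%, and the D-box forms TTATGTAA and TTACGTAA in 0.938% and 0.119%. In windows of genes called higher, called lower and tested, in that order, the RORE core was in 2.15%, 2.26% and 2.18%. The SRE was in 0.938%, 1.77% and 1.26%, and the cAMP response element in 2.87%, 2.18% and 2.59%. The D-box forms were in 0.552%, 1.13% and 0.707%, and in 0.0552%, 0.242% and 0.157%. For the 16 clock genes with an entry, 6 of 21 windows held the E-box, including 1 or more windows of Per1, Cry1, Tef, Bhlhe41 and Ciart, and 2 held the RORE core, those of Arntl and Nfil3. For the 17 sterol genes with an entry, 4 of 20 windows held the E-box, 2 (of Dhcr7) held the RORE core and 1, that of Hmgcs1, held the SRE. A match is a string of letters in a short window and was not tied to binding.

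Genes of cholesterol synthesis and its regulation were lower in the DRF livers across most of the pathway. Of 25 measured genes 16 were called lower (64.0%, against 6.07% of all genes called lower), and the median log2 difference was -0.81. In limma's test 0 were called higher, also at an unadjusted p under 0.05, where 20 were lower. Among enzymes, Mvd, which makes isopentenyl pyrophosphate in the mevalonate pathway, had 7.95, 8.02, 9.69 and 8.96 scaled counts under DRF and 31.1, 62.0, 27.7 and 43.2 under NRF (-2.06 ± 0.27 SE, adjusted p = 1.89e-07). Squalene epoxidase, Sqle, had 28.0, 19.2, 31.0 and 23.2 under DRF and 84.9, 86.5, 81.7 and 105 under NRF (-1.796 ± 0.29, adjusted p = 8.44e-06). The upstream synthase Hmgcs1 followed (-1.13 ± 0.26). Insig1, which retains the SREBP complex in the ER when sterols are plentiful, had 123, 106, 98.7 and 116 under DRF and 323, 381, 267 and 362 under NRF (-1.57 ± 0.19, adjusted p = 1.75e-08). Srebf2, which encodes the pathway's transcription factor, did not pass the test (28.0 ± 1.94 and 33.9 ± 3.53 scaled counts, SD, n = 4; -0.26 ± 0.13, adjusted p = 0.222).

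The sterol genes stood differently 4 h earlier. At ZT16 the list's median log2 difference was 0.35, and for 17 of 25 genes the ZT20 and ZT16 differences were called apart. Hmgcs1 had 310 scaled counts under DRF and 133 under NRF at ZT16, against 142 and 317 at ZT20 (adjusted p = 2.14e-05). Mvd was at 17.4 and 16.2 at ZT16 (0.000122) and Sqle at 63.4 and 58.8 (0.00135). At ZT24 the list's median was -0.62, and 1 of 25 genes differed from ZT20.

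De novo lipogenesis was lower in the same livers. Of 16 measured genes 9 were called lower (56.3% against 6.07%), the median log2 difference was -0.71, and 0 were called higher by limma, 0 also at an unadjusted p under 0.05. Pnpla3, a lipid droplet hydrolase induced by feeding, had 2.92, 1.58, 4.99 and 1.77 scaled counts under DRF and 31.9, 41.6, 19.5 and 33.4 under NRF (-3.13 ± 0.43 SE, adjusted p = 3.95e-07). Fasn, the fatty acid synthase (chr11:120805846-120824547), had 141, 139, 231 and 194 under DRF and 714, 1323, 622 and 974 under NRF (-2.33 ± 0.38, adjusted p = 9.71e-06). Thrsp (-2.26), the citrate-cleaving Acly (-1.93), the elongase Elovl6 (-1.81) and the acetyl-CoA carboxylase Acaca (-0.82, not called on the deposited scale) were lower too, with no overlap between the groups. Both lead factors of the pathway were measured: Srebf1 was lower (80.1 ± 19.2 against 278 ± 20.9 scaled counts, SD, n = 4; -1.81 ± 0.20, adjusted p = 4.31e-09), while Mlxipl, which encodes ChREBP, did not pass (-0.40 ± 0.16, adjusted p = 0.0891). Aacs, which activates acetoacetate for lipid synthesis, was at 48.7 ± 20.7 and 359 ± 122 (-2.89 ± 0.37, adjusted p = 1.43e-07).

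In the glycolysis list 2 of 18 genes were higher and 1 was lower, a share (16.7%) near the 13.7% of all genes. The higher ones were Slc2a2, the GLUT2 transporter (0.74 ± 0.13 SE), and Pdk2, an inhibitor of pyruvate dehydrogenase (0.88 ± 0.15). Slc2a5, the fructose transporter, was also higher (10.6 ± 1.76 against 1.99 ± 0.324, SD, n = 4; 1.95 ± 0.23, adjusted p = 1.34e-08). In the glycogen list 4 of 12 were higher and 2 were lower (50% called). The lower ones were the glycogen-targeting subunits of protein phosphatase 1: Ppp1r3c (11.1 ± 1.89 against 47.6 ± 4.39, SD, n = 4; -2.02 ± 0.19) and Ppp1r3b (-1.82 ± 0.24). Ugp2, which makes UDP-glucose, was higher (0.81 ± 0.16, adjusted p = 0.000172). Ppp1r3c was reversed at ZT16 (0.95 ± 0.19, adjusted p = 5.66e-11 for ZT20 against ZT16).

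Gluconeogenic genes were higher in the fasting DRF livers, in part of the list. Of 13 measured, 6 were called higher (46.2%, against 7.67% of all genes), and the median log2 difference was 0.35. In limma's test 0 were called lower, and 1 at an unadjusted p under 0.05. Pck1, the cytosolic PEP carboxykinase (chr2:173153048-173159273), had 690, 1139, 680 and 802 scaled counts under DRF and 141, 73.0, 216 and 151 under NRF (2.57 ± 0.36 SE, adjusted p = 6.49e-07). The serine dehydratase Sds had 114, 121, 162 and 102 under DRF and 41.2, 34.0, 43.5 and 42.4 under NRF (1.59 ± 0.21, adjusted p = 2.90e-07), and the aspartate aminotransferase Got1 was at 1.56 ± 0.22 (adjusted p = 8.77e-07). The enzyme that releases free glucose, G6pc, did not pass: its DRF values were 251, 135, 430 and 361 and its NRF values 151, 215, 231 and 261, so the groups overlapped (0.35 ± 0.34, adjusted p = 0.5996). Fbp1 was at 2163 ± 217 and 2171 ± 261 (SD, n = 4; adjusted p = 0.994). The calls of Gpt2 (0.49, adjusted p = 0.0335) and of the glucose-6-phosphate transporter Slc37a4 (0.60, 0.0446) were lost on the deposited scale, with length removed, and without each of 4 livers (Gpt2) or 5 livers (Slc37a4) in turn.

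Amino acid breakdown and the urea cycle followed, with 7 of 31 genes higher and 1 lower and a median of 0.19. Of the list 25.8% were called, against 13.7% of all genes. This list and the gluconeogenesis list share some genes, so their counts are not independent. Oat, ornithine aminotransferase, was at 1898 ± 392 and 895 ± 142 scaled counts (SD, n = 4; 1.08 ± 0.20 SE, adjusted p = 7.01e-05). Tdo2, which opens the breakdown of tryptophan, was at 0.69 ± 0.15, arginase Arg1 at 0.60 ± 0.11 and Bckdha, of the branched-chain keto acid dehydrogenase, at 0.56 ± 0.08, each without overlap. The lower gene was Nags, which makes the activator of the urea cycle (-0.37 ± 0.11, adjusted p = 0.0139); it was not called on the deposited scale or without DRF replicate 4 or NRF replicate 2.

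In the fatty acid oxidation list 8 of 29 genes were higher and 1 was lower, with a median of 0.30. Of the list 31.0% were called, against 13.7% of all genes. Cpt1a, which admits fatty acids to the mitochondrion, had 193, 257, 175 and 206 scaled counts under DRF and 72.5, 66.8, 72.8 and 79.95 under NRF (1.48 ± 0.14 SE, adjusted p = 3.70e-11). The microsomal ω-hydroxylases Cyp4a14 (1.74 ± 0.36), Cyp4a10 (1.15 ± 0.30, not called without NRF replicate 1) and Ppara itself (0.86 ± 0.14) were higher too. Cyp4a14 and Cyp4a10 are similar genes, between which reads may be split. Pdk4, an inhibitor of glucose oxidation that fasting is known to raise, went against the list (9.17, 20.4, 4.35 and 5.44 under DRF, 14.3, 19.9, 19.8 and 27.8 under NRF; -1.17 ± 0.33, adjusted p = 0.0104). Its groups overlapped through DRF replicate 2, and its call was lost without DRF replicate 3 or 4.

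Of 16 secreted factors and regulators known from fasting, 9 were higher and 1 was lower (62.5% called), with a median of 0.44. Angptl4, an inhibitor of lipoprotein lipase, had 11.9, 20.9, 16.2 and 11.1 scaled counts under DRF and 2.89, 2.54, 2.24 and 2.86 under NRF (2.10 ± 0.32 SE, adjusted p = 4.09e-06). The triglyceride lipase Pnpla2 (1.34 ± 0.13), the phosphatidate phosphatase Lpin1 (1.33 ± 0.30), the coactivator Ppargc1a (54.8 ± 2.15 against 31.9 ± 0.284, SD, n = 4; 0.76 ± 0.15) and Creb3l3 (0.71 ± 0.13) were higher. The hormone Fgf21 was low in every liver and was carried by DRF replicate 2 (0.139, 1.06, 0.213 and 0.175 under DRF, 0.01001 to 0.0842 under NRF), without which its call was lost. Sik1, a kinase that restrains gluconeogenesis, was lower (-1.09 ± 0.24, adjusted p = 0.000902).

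Autophagy genes that were called were all higher: 10 of 21 were called higher (47.6%, against 7.67%) with a median of 0.28, and 0 were called lower by limma, 0 also at an unadjusted p under 0.05. The initiating kinase Ulk1 had 64.5, 57.2, 70.4 and 65.1 scaled counts under DRF and 25.2, 23.7, 27.4 and 28.9 under NRF (1.26 ± 0.13 SE, adjusted p = 7.99e-10). Wipi1 (1.28 ± 0.14), the mitophagy receptor Bnip3 (1.18 ± 0.25) and the LC3 gene Map1lc3b (1.17 ± 0.22) were of like size. In the insulin signalling list 4 of 17 genes were higher and 3 lower (41.2% called, against 13.7% of all genes). The receptor gene Insr was higher (660 ± 11.4 against 446 ± 22.5, SD, n = 4; 0.57 ± 0.08, adjusted p = 1.52e-06), and the regulatory subunit Pik3r1 (-0.50 ± 0.15, adjusted p = 0.0143) and the growth factor Igf1 (-0.56 ± 0.16, adjusted p = 0.0112) were lower. Both of these were lost on the deposited scale and without DRF replicate 2.

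**Figure D3:**
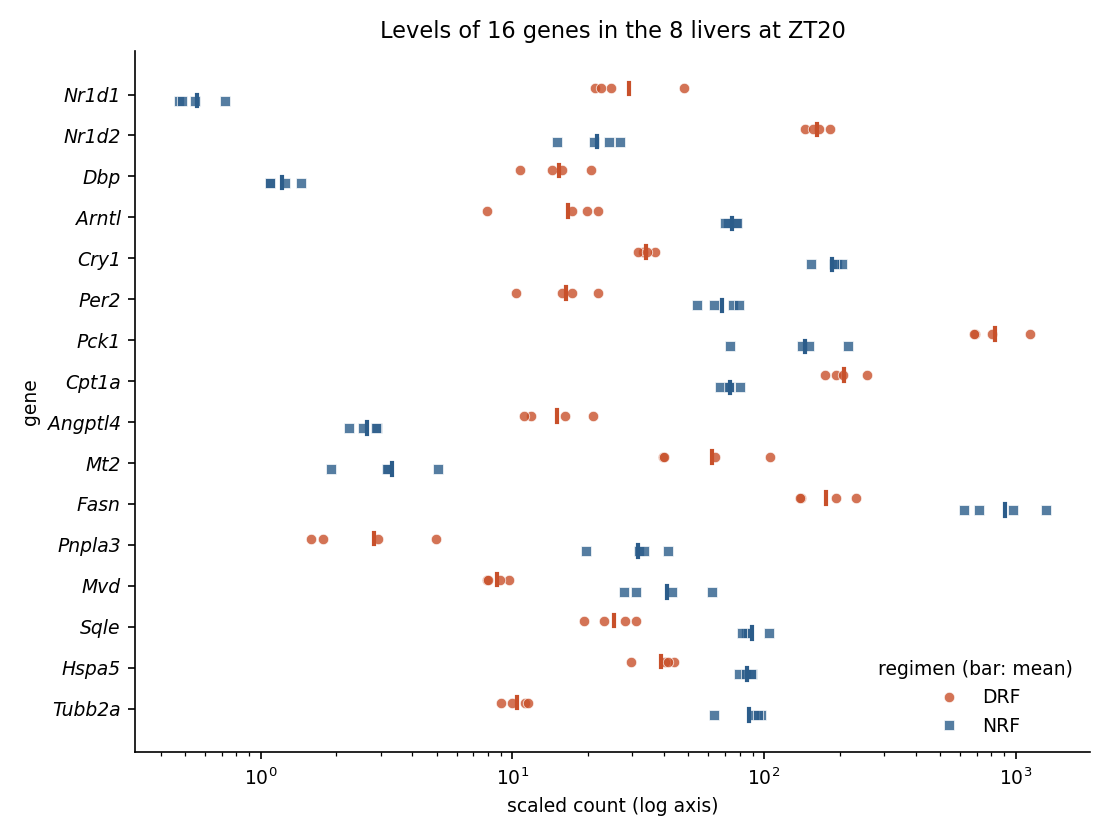
Scaled counts (log axis) of 16 genes in each of the 8 livers at ZT20, DRF as circles and NRF as squares, with a bar at each group mean. The groups do not overlap for any of the 16 genes, but several of these were named under a rule that required no overlap. Nr1d1 lies between 21.2 and 48.1 under DRF and under 1 under NRF.

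Genes of protein folding were lower in the DRF livers. In the ER chaperone and unfolded protein response list 14 of 24 genes were lower and 2 were higher (66.7% called), with a median of -0.38. Hspa5, the ER chaperone BiP, had 29.5, 43.9, 40.5 and 41.7 scaled counts under DRF and 79.3, 84.7, 89.6 and 89.1 under NRF (-1.13 ± 0.24 SE, adjusted p = 0.000706). Creld2 (-1.47), Manf (-1.39), Hyou1 (-1.34) and the disulfide isomerase Pdia3 (-0.76) were lower as well. The higher ones were Herpud1, of ER-associated degradation (0.78 ± 0.20), and the stress sensor Atf6 (0.40 ± 0.09). In the heat shock list 7 of 17 were lower and 1 was higher (47.1% called, against 13.7% of all genes), with a median of -0.54. Hsp90aa1 was at 46.1 ± 1.91 and 175 ± 30.2 (SD, n = 4; -1.89 ± 0.49, adjusted p = 0.00523), and Hspb1 (-1.26 ± 0.17) and Hspa4l (-1.06 ± 0.12) followed. The higher one was Cirbp, a protein induced by mild cold (1.89 ± 0.596 against 0.875 ± 0.112; 0.60 ± 0.19, adjusted p = 0.0273), whose call was lost without each of 4 livers in turn. In the list of the integrated stress response and serine synthesis 4 of 18 were higher and 1 was lower. Of the list 27.8% were called, against 13.7% of all genes. Its median was 0.02, with 9 members above 0 and 9 below 0. Trib3 (1.58 ± 0.27), Eif4ebp1 (0.70 ± 0.12) and Sesn2 (0.67 ± 0.13), brakes on AKT, on translation and on mTORC1, were among the higher.

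In the cell cycle and proliferation list, which includes tubulin genes, 8 of 24 were lower (33.3%, against 6.07% of all genes), with a median of -0.15. The count is therefore not of proliferation genes alone. In limma's test 0 were called higher, and 2 at an unadjusted p under 0.05. Tubb2a (chr13:34074274-34078007) had 9.99, 11.2, 11.6 and 9.05 scaled counts under DRF and 63.2, 97.2, 91.6 and 94.9 under NRF (-2.92 ± 0.18 SE, adjusted p = 2.22e-16). Its close paralogue Tubb2b had 1.23, 1.27, 0 and 1.09 under DRF and 7.36, 11.4, 11.1 and 11.2 under NRF (-2.63 ± 0.28, not called on the deposited scale); reads of such copies may be split between them. Tuba4a (-1.22) and Tubb4b (-1.19) were lower too. The replication helicase genes Mcm5 (-0.94, adjusted p = 0.0207) and Mcm6 (-0.92, 0.0284) lost their calls without 4 of the 8 livers, 1 at a time. Of 25 ribosome biogenesis genes 5 were lower and 1 was higher (24% called, against 13.7% of all genes), with a median of -0.04. Among them were Mybbp1a (-0.65 ± 0.10) and the higher Ubtf (0.38 ± 0.09). Of 15 named noncoding RNAs 2 were higher (13.3%, near the 13.7% of all genes), with 0 lower in limma's test and 1 at an unadjusted p under 0.05. Snhg1 was among the higher (0.44 ± 0.11, not called when only the 8 libraries were fitted).

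In the list of bile acid synthesis and sterol transport 6 of 18 genes were higher and 2 were lower (44.4% called), with a median of 0.17. Both subunits of the biliary sterol exporter, Abcg8 and Abcg5, were both higher: Abcg8 had 44.4, 48.9, 41.5 and 60.5 scaled counts under DRF and 11.4, 10.8, 16.2 and 11.0 under NRF (1.91 ± 0.18 SE, adjusted p = 7.35e-11), and Abcg5 was at 0.97 ± 0.14. The phospholipid flippase Abcb4 (0.72 ± 0.10) and the bile salt export pump Abcb11 (812 ± 12.2 against 587 ± 23.8, SD, n = 4; 0.47 ± 0.10) were higher, and Abca1, which loads cholesterol onto HDL, was lower (-0.35 ± 0.09, adjusted p = 0.00393, not called on the deposited scale). In the list of drug metabolism and heme 1 of 22 was higher and 3 were lower (18.2% called, against 13.7% of all genes). The higher one was the P450 reductase Por (0.91 ± 0.11). The lower ones were Cyp2a4 (-2.11 ± 0.25), Cyp2a5 (-1.05 ± 0.26) and the receptor Ahr (-0.47). Cyp2a4 and Cyp2a5 are similar genes, between which reads may be split.

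Both metallothionein genes, whose products bind zinc and copper, were among the 15 largest rises; reads of such close copies may be split between them. Mt2 had 64.0, 39.7, 105 and 39.9 scaled counts under DRF and 3.19, 3.18, 5.08 and 1.90 under NRF (3.80 ± 0.50 SE, adjusted p = 2.18e-07), and Mt1 had 26.1, 23.3, 43.9 and 23.2 under DRF and 2.25, 2.64, 3.57 and 1.995 under NRF (3.03 ± 0.44, adjusted p = 1.60e-06). Both belong to the glucocorticoid response list, where 3 of 16 were higher and 2 were lower (31.25% called, against 13.7% of all genes). Klf9 was higher (1.40 ± 0.15) and Tsc22d3, also a classical target, was lower (140 ± 44.0 against 295 ± 49.9, SD, n = 4, log2 difference -1.11 ± 0.23, adjusted p = 0.000516). Tfrc, the transferrin receptor, had 4.60, 6.34, 5.36 and 7.67 under DRF and 61.0, 45.7, 57.3 and 65.4 under NRF (-3.07 ± 0.34, adjusted p = 3.85e-09). In its list of 21 acute phase and iron proteins 3 were higher and 1 was lower (19.05% called, against 13.7% of all genes). The higher ones included the fibrinogen chains Fgb and Fgg (0.41 each, not called on the deposited scale). Of 15 immediate early genes 2 were higher and 1 was lower (20% called, against 13.7% of all genes). Klf10 was among the higher (0.99 ± 0.27).

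Products that growth hormone pulses set differently in the sexes were mixed. In their list 3 of 20 were higher and 3 lower (30% called, against 13.7% of all genes). Cux2, a female-biased repressor in mouse liver, was higher (20.3 ± 10.3 against 5.66 ± 1.14, SD, n = 4; 1.55 ± 0.43 SE, adjusted p = 0.0104), a call lost without DRF replicate 4. Serpina1e had 447, 284, 264 and 181 scaled counts under DRF and 1753, 815, 2779 and 896 under NRF (-2.29 ± 0.49, adjusted p = 0.000637), and Mup3 was at -0.59 ± 0.19 (adjusted p = 0.0349), a call lost on the deposited scale and without each of 5 livers in turn.

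The 15 largest rises and 15 largest falls, chosen among called genes with a mean of at least 5 and no overlap, held several genes outside these lists. Among the rises, Gpcpd1, which cleaves glycerophosphocholine, had 212, 192, 199 and 207 scaled counts under DRF and 33.2, 27.5, 38.4 and 28.0 under NRF (2.65 ± 0.20 SE, adjusted p = 2.85e-13). The liver mitochondrial carrier Slc25a47 was at 435 ± 65.5 and 73.4 ± 15.7 (SD, n = 4; 2.56 ± 0.25), the ubiquitin ligase subunit Fbxo21 at 142 ± 13.3 and 24.6 ± 3.90 (2.48 ± 0.20), Tbc1d30 at 34.3 ± 2.41 and 7.504 ± 1.001 (2.06 ± 0.18) and the mitochondrial sodium-calcium exchanger Slc8b1 at 92.0 ± 15.3 and 22.7 ± 3.12 (1.97 ± 0.21). The antisense gene Gm14097 was at 17.6 ± 1.78 and 1.18 ± 0.368 (3.10 ± 0.23, adjusted p = 1.06e-13). Rgs16, a regulator of G protein signalling, varied widely between animals, with 4.26, 35.3, 21.8 and 17.2 under DRF and 0.203, 3.15, 0.307 and 1.38 under NRF (3.08 ± 0.48). Among the falls, the nicotinic receptor subunit gene Chrna4 was the largest, with 0.598, 0.6, 1.31 and 0.655 under DRF and 17.8, 32.1, 8.34 and 16.8 under NRF (-3.34 ± 0.48, adjusted p = 1.03e-06). The matrix genes Hapln1 (-2.56 ± 0.30) and Loxl4 (-2.46 ± 0.18) and the nuclear receptor gene Ppard (-2.29 ± 0.17) were also among them, as was Cyp3a44 (78.1 ± 28.1 against 504 ± 238; -2.60 ± 0.48), one of a family of similar genes between which reads may be split.

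The fasting minus feeding difference at ZT20 (DRF minus NRF) was set beside that at ZT8 (NRF minus DRF), where the NRF mice were in their fast and the DRF mice were feeding. Mealtime sets both the fast and the phase of the liver clock, so the comparison cannot tell these apart. These comparisons share no animals. At ZT8 3284 genes (12.9%) were called, and 1598 genes were called at both times, which is 45.8% of the ZT20 calls and 48.7% of the ZT8 calls. Of these 1567 had the same sign, 882 higher and 685 lower in the fast, and 31 had opposite signs. The ZT20 and ZT8 differences were called apart for 376 genes (1.48%), 221 of them called at ZT20. A gene not called apart is not shown to be alike at both times.

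The clock genes Nr1d1 (4.20 and 3.69), Dbp (2.85 and 2.89) and Cry1 (-2.41 and -3.05) were not called apart between the night fast and the day fast (values in that order), and neither were Pnpla3 (-3.13 and -2.40), Fasn (-2.33 and -1.799), Tfrc (-3.07 and -3.37), Tubb2a (-2.92 and -2.80) and Mt1 (3.03 and 2.63), with adjusted p for the difference between 0.338 and 0.994. Lipogenesis had 0 of 16 genes called apart and autophagy 0 of 21. Within the clock, Nr1d2 was further apart in the night fast (2.87 against 1.62, adjusted p = 0.00165), as were Per2 (-2.03 against -0.64, 0.0402) and Npas2 (-1.61 against -0.61, 0.0204), while Arntl (-2.17 against -3.34, 0.0114) and Bhlhe41 (0.36 against 1.39, 2.12e-05) were further apart in the day fast.

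**Figure D4:**
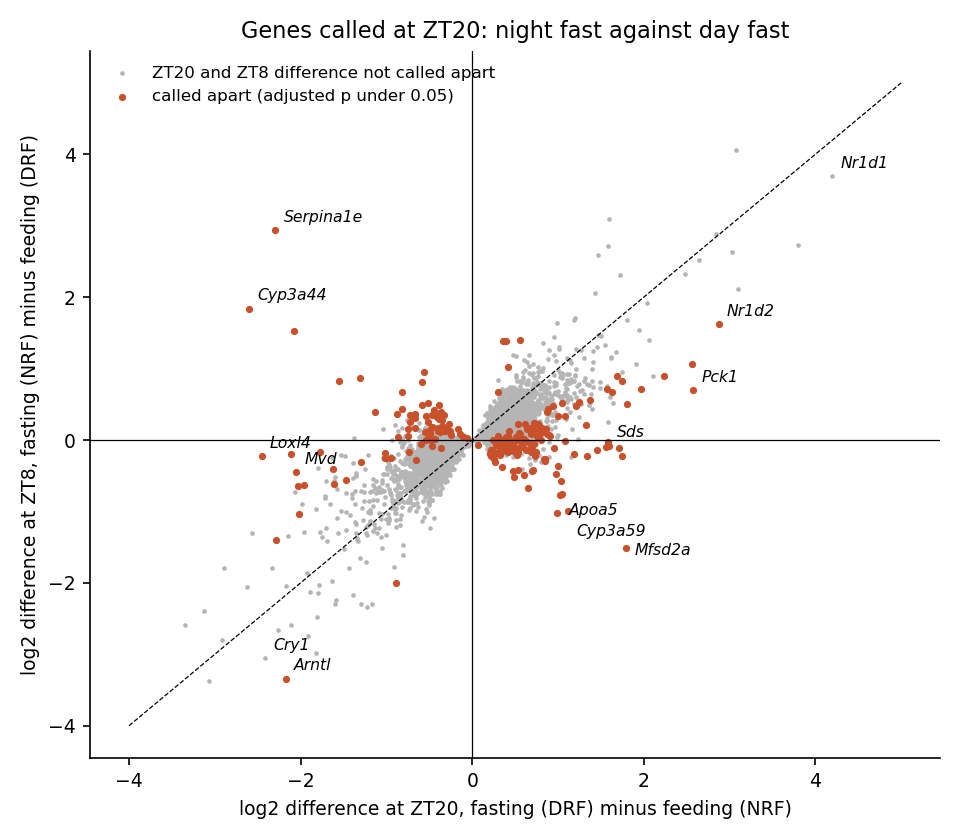
Log2 fasting minus feeding difference at ZT8 against that at ZT20 for the 3489 genes called at ZT20, with the 221 genes whose differences were called apart in orange and a dashed line of equal differences. Most points lie in the quadrants of equal sign, and Serpina1e, Cyp3a44, Apoa5 and Mfsd2a lie in the others.

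Part of the genes of amino acid breakdown and gluconeogenesis were called apart between the fasts. In the gluconeogenesis list 6 of 13 genes were called apart and in the amino acid list 8 of 31, against 1.48% of all genes. Some genes are in both lists and count in each. Pck1 was at 2.57 in the night fast and 0.70 in the day fast (adjusted p = 0.0448), with 444 ± 77.5 scaled counts under NRF and 292 ± 127 under DRF at ZT8 (SD, n = 4). Sds was at 1.59 and -0.08 (0.00108) and Got1 at 1.56 and -0.09 (0.00184). G6pc was at 0.35 and -1.46 (0.0418), with 59.4 ± 17.2 under NRF and 166 ± 53.2 under DRF at ZT8. Gpt2 was at 0.49 and -0.52 (0.0109), Slc37a4 at 0.60 and -0.50 (0.0418), Oat at 1.08 and -0.01 (0.0310), Tdo2 at 0.69 and -0.17 (0.0273) and Arg1 at 0.60 and -0.10 (0.00878). Of the lipid genes, Cyp4a14 was at 1.74 and -0.23 (0.0322), Acadm, a mitochondrial acyl-CoA dehydrogenase, at 0.50 and -0.16 (0.0282) and Lpin1 at 1.33 and -0.23 (0.0460).

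The sterol genes Mvd (-2.06 and -0.45, adjusted p = 0.0184) and Hmgcs1 (-1.13 and 0.39, 0.0203) were called apart as well, 2 of 4 such genes in the list of 25, while Insig1 (-1.57 and -1.09) was not. Ugp2 (0.81 and -0.00, 0.0486) and Ppp1r3c (-2.02 and -1.03, 0.0415), of glycogen metabolism, Slc25a47 (2.56 and 1.07, 0.0179), Por (0.91 and 0.05, 0.000751), Cyp2a4 (-2.11 and -0.20, 0.00180) and the unfolded protein response factor Xbp1 (-0.38 and 0.38, 0.00247) belonged to the same group. The adjusted p of many of these lay near the threshold, and on the deposited scale 104 genes in all were called apart.

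The 5 genes of each sign with the smallest adjusted p for this contrast included 5 that passed in the same regimen at both times. Apoa5, a regulator of plasma triglycerides, had 212 ± 10.8 scaled counts under DRF and 104 ± 11.6 under NRF at ZT20, and 148 ± 21.2 and 86.0 ± 8.601 at ZT8 (SD, n = 4), so that its fasting minus feeding difference was 1.03 at ZT20 and -0.76 at ZT8 (adjusted p = 3.09e-07). Cyp3a59 was also higher under DRF at both times (1.12 and -0.999, 1.42e-06), as was Mfsd2a, a transporter of lysophospholipids, with 106 ± 24.2 against 29.6 ± 5.68 at ZT20 and 68.1 ± 47.2 against 20.04 ± 5.41 at ZT8 (1.798 and -1.52, 1.99e-05). Serpina1e was lower under DRF at both, with 281 ± 111 under DRF and 2070 ± 476 under NRF at ZT8 (-2.29 and 2.93, 9.28e-06), and so were Cyp3a44 (-2.60 and 1.84, 0.000103) and, outside the 10, Mup3 (-0.59 and 0.82, 0.00260). Brap (1.33 and 0.21, 1.99e-05), Lpin2 (0.95 and -0.12, 0.000109) and Loxl4 (-2.46 and -0.23, 3.09e-07) passed at ZT20 and did not pass at ZT8. Abca2 (0.07 and 0.84, 1.31e-05) and the pentraxin Apcs (-0.38 and 1.01, 0.000103) passed at ZT8 and did not pass at ZT20. Cyp3a59, like Cyp3a44, Serpina1e and Mup3, belongs to a family of similar genes, between which reads may be split.

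**Figure D5:**
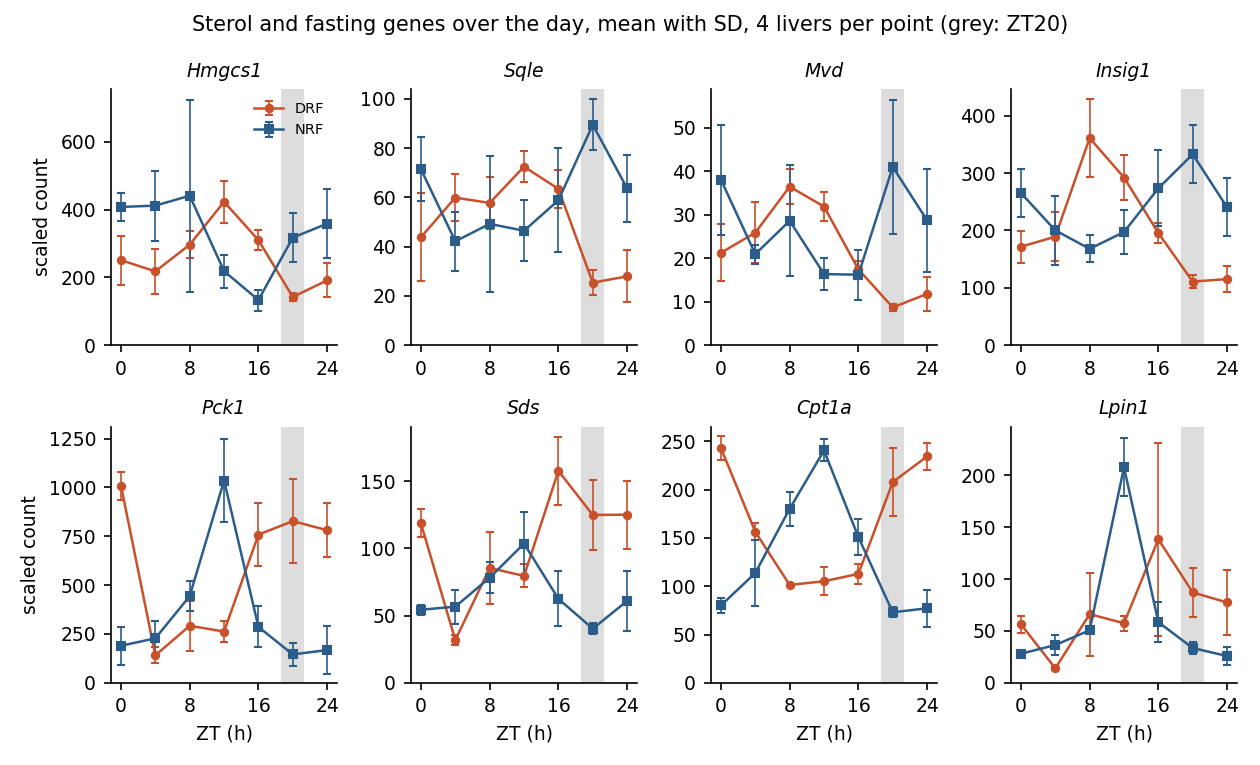
Mean scaled counts with SD (4 livers per point) of 4 sterol genes and 4 fasting genes at each sampled ZT under DRF (circles) and NRF (squares), with ZT20 shaded. At ZT20 the DRF means of Sqle, Mvd and Insig1 were 25.3, 8.66 and 111 and the NRF means 89.5, 41.0 and 333, and Pck1 was at 828 under DRF and 145 under NRF.

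Compared with the other dark and late times, 40.2% of the ZT20 calls were also called at ZT16 (36.5% of the 3845 ZT16 calls) and 51.9% at ZT24 (50.7% of the 3570 ZT24 calls). Of the genes called at both, 155 had opposite signs at ZT16 and 34 at ZT24. Cpt1a turned between ZT16 and ZT20, from -0.41 ± 0.14 to 1.48 ± 0.14 (adjusted p = 2.80e-09), while Pck1 was already higher under DRF at ZT16 (758 against 286 scaled counts) and Srebf1 already lower (-1.79 and -1.81).

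Markers of the liver's cell types were measured beside these results. For hepatocytes 1 of 8 was called higher (Fgb, 12.5% of the list, near the 13.7% of all genes called). The summed level lay between 98646 and 107360 scaled counts in the DRF livers and between 106530 and 118980 in the NRF livers (2-sided exact permutation p = 0.0571). A single marker, with a mean of 92295 scaled counts, made up most of that sum. Of the 8 markers 6 had a log2 difference above 0 and 2 below 0, and the list's median was 0.03. For sinusoidal endothelial cells 3 of 10 markers were called higher (Stab1, Stab2 and Pecam1, 30% of the list, against 7.67% of all genes). Of the 10, 9 had a log2 difference above 0 and 1 below 0. The summed level of the list lay between 634 and 681 scaled counts in the DRF livers and between 532 and 615 in the NRF livers (2-sided exact permutation p = 0.0286, the smallest that 4 against 4 can give). For Kupffer cells 0 of 10 were called by limma (2 at an unadjusted p under 0.05, both higher), with sums of 677 to 1019 and 626 to 769. All 10 had a log2 difference above 0, with a median of 0.27. For stellate cells 0 of 10 were called, 0 also unadjusted, with sums of 829 to 997 and 802 to 987. For cholangiocytes 1 of 7 was lower (Krt19) and for lymphocytes 1 of 8 was higher (Nkg7). These shares (14.3% and 12.5%) are near the 13.7% of all genes called. The sums of both lists overlapped, as did those of 5 erythroid markers, of which 0 were called or passed unadjusted. All 5 erythroid markers had a log2 difference above 0. The single measured markers of adipocytes (Cfd) and of pancreatic acinar cells (Cela2a) were under 1 scaled count in every liver. The part of the marker levels of these cell types in the other results was not tested.

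Gene length was examined because it can move with library preparation. A length index was taken for each liver as Spearman's correlation, over 13734 genes, of exon length with the liver's deviation from the mean of all libraries. It was between 0.0799 and 0.207 in the DRF livers and between -0.0475 and 0.303 in the NRF livers, and the regimens did not differ beyond that spread (difference 0.0407, 2-sided exact permutation p = 0.657). With length removed from each library, 3276 genes were called, of which 48.9% were higher under DRF, against 55.8% before, so which direction holds the majority is not settled. Of the genes above, 73.5% of the exons of Mt2, 61.7% of those of Bckdha, 37.3% of those of Tuba4a and 29.6% of those of Sds overlap exons of a gene on the other strand (Gm45774, B3gnt8, Stk16 and Plbd2), and whether strand was used in counting is not given in the sources used here.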

How the data were processed

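Female mouse livers were profiled by ribosome-depleted, strand-specific paired-end RNA sequencing under DRF or NRF, 4 animals per regimen and time. The submitters' processing notes name CASAVA 1.8, featureCounts 1.5.0-p3 and the builds mm10 and GRCm38.p6. The aligner and the strand setting of the counting are not given in the sources used here. The molecule field of the labels reads polyA RNA, while the protocol describes ribosomal RNA depletion.

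The gene table deposited by the authors is named TPM, but its values are treated here as a score, because they are not linear: value times exon length equals a constant of the library times the natural log of 1 plus a scaled count. Inverting this gave whole numbers in 99.91% of values up to 20000 counts in 10853 genes held out from the fit (tolerance 0.05). These recovered counts (371 to 689 M per library, where M stands for 1000000) are larger than read numbers usual for such libraries and are not called reads. Annotated exon lengths (GENCODE vM21) served 20465 genes under the strict tolerance, and 2665 deeply covered genes were whole only within 0.2. For 2212 genes the length was searched on the values, 51 were too deep to judge, and 22 of 25415 were left out, which left 25393.

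Regimens were compared with limma 3.58.1 (R 4.3.3) on log2(scaled count + 1), with an intensity trend and 1 mean for each of 14 groups over all 56 libraries, which then share an estimate of spread. Calls had a Benjamini-Hochberg adjusted p under 0.05 over all genes, and adjusted p in the text are from this fit. Log2 differences are on this scale, which understates changes of low genes. Contrasts of ZT20 with ZT8, ZT16 and ZT24 came from the same fit. The fit was tested on simulated data. Single summed values were compared by 2-sided exact permutation tests. The precision rests on 4 animals per group.

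Genes were named as members of the pathway lists, as the 15 largest rises and 15 largest falls (called, a mean of at least 5 in the higher group, no overlap), and as the 5 genes of each sign with the smallest adjusted p for ZT20 against ZT8. The members, lists and tests were chosen with earlier results of these data known. Genes named beside these were marker genes or partners on the other strand. Alternatives were the compared groups alone, the deposited values, another pseudocount, a filter on low genes, other scaling, a correction for length, no trend, a replicate block and leaving out each library. Promoters were RefSeq windows of GRCm38.p6. Every value column was mapped to a sample. The transcript and circular RNA tables were not used here. Some genes of the lists, counted in them, are not reported here by name.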

Additional observations from a re-analysis of the deposited data

Results flagged for a closer look

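In groups of 4 livers, 20 of 266 tested groups held a liver far from the other 3 by Dixon's 95% critical value, where chance gives about 1 in 20, or 13. NRF replicate 3 held 5, NRF replicate 1 held 4, and DRF replicate 1 held 0. In DRF replicate 2, Nr1d1 was high at 48.12, Cyp4a10 was high at 1753 and Fgf21 was high at 1.058 scaled counts. In DRF replicate 3, Mt1 was high at 43.92, Tubb2b was low at 0 and Chrna4 was high at 1.312 scaled counts. In DRF replicate 4, Tuba4a was high at 9.424 scaled counts. In NRF replicate 1, Insr was high at 479.2, Map1lc3b was high at 10.5, Tubb2a was low at 63.18 and Tubb2b was low at 7.355 scaled counts. In NRF replicate 2, Ppard was high at 22.54 scaled counts. In NRF replicate 3, Elovl6 was low at 81.62, Igf1 was low at 809.3, Abcg8 was high at 16.18, Klf9 was high at 13.94 and Gm14097 was high at 1.73 scaled counts. In NRF replicate 4, Bhlhe41 was low at 0.05566, Pik3r1 was low at 125.3 and Cyp3a59 was high at 153.8 scaled counts.

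Other genes stood out because their difference at ZT20 was called apart from that at another time by limma's contrast. The values that follow are the ZT20 difference minus the other, on the log2 scale. Against ZT8 (fasting minus feeding at both times) 376 genes were called apart, all adjusted p of the named ones being between 3.09e-07 and 0.0486. The contrast was above 0 for Arntl (1.17), Nr1d2 (1.25), Cyp4a14 (1.97), Acadm (0.662), Lpin1 (1.56), Pck1 (1.88), Sds (1.67), Got1 (1.65), Gpt2 (1.01) and Slc37a4 (1.1). The same held for G6pc (1.81), Oat (1.09), Tdo2 (0.858), Arg1 (0.7), Ugp2 (0.806), Por (0.858), Slc25a47 (1.49), Apoa5 (1.79), Cyp3a59 (2.12) and Mfsd2a (3.32). The same held for Brap (1.12) and Lpin2 (1.07). It was below 0 for Npas2 (-0.997), Per2 (-1.38), Bhlhe41 (-1.03), Mvd (-1.61), Hmgcs1 (-1.52), Ppp1r3c (-0.985), Xbp1 (-0.76), Cyp2a4 (-1.91), Serpina1e (-5.23) and Mup3 (-1.4). The same held for Cyp3a44 (-4.44), Loxl4 (-2.22), Abca2 (-0.77) and Apcs (-1.39).

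Against ZT16 (DRF minus NRF at both times) 1344 genes were called apart, and against ZT24 300. Against ZT16 the contrast was above 0 for Nr1d2 (2.52), Dbp (3.67) and Cpt1a (1.9). It was below 0 there for Arntl (-3.03), Npas2 (-3.28), Cry1 (-1.69), Nfil3 (-2.17), Mvd (-2.2), Sqle (-1.97), Hmgcs1 (-2.37) and Ppp1r3c (-2.97). Against ZT24 it was below 0 for Per2 (-3.09), Cry2 (-0.919), Dbp (-1.6), Tef (-2.01), Per3 (-3.02) and Hlf (-1.49).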

How the results depend on the processing

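The number of genes called at ZT20 was between 2643 (only the groups compared) and 3525 (median-of-ratios scaling) over the 8 alternatives that kept all libraries, against 3489, and between 2825 and 3374 when 1 library was left out. The deposited scale gave 2802, a filter on a mean scaled count of at least 1 gave 3238, and the length correction gave 3276. The share of calls higher under DRF was 48.9% with the length correction, so the majority changed side, and 59.4% with the filter and 60.7% on the deposited scale, against 55.8%. Of the list members, between 135 and 181 were called over all alternatives, against 167.

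The counts of genes called apart between times also moved. For ZT20 against ZT8 the count fell from 376 to 104 on the deposited scale, and ranged from 242 (without DRF replicate 3) to 375 (without DRF replicate 1). For the regimen difference, ZT20 against ZT16, it fell from 1344 to 884 with only the groups compared and to 801 on the deposited scale, and ranged from 956 to 1327 with 1 library left out. For ZT20 against ZT24 it fell from 300 to 187 and 141 in the same order, and ranged from 189 (without DRF replicate 1) to 301 (without DRF replicate 4). The cause was not tested. The difference in length index, 0.0407, ranged from -0.01242 (without NRF replicate 4, exact permutation p = 0.886) to 0.1043 (without NRF replicate 1).

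Of 133 genes considered for the text 122 were called. Over 2126 pairs of a gene and an alternative, 65 lost the call (24 genes) and 1 gained it, and 98 called genes kept it under every alternative run. The sign changed in 0 pairs of a called gene and in 8 pairs of genes that were not called, those of Per1, Per3 and Fbp1. The replicate numbers did not pair the livers: correlations of same-numbered deviations were 0.0473, -0.0336, -0.0857 and -0.0645. With the replicate number as a block 3517 genes were called, and 0 of the 122 lost the call. The depth of genes under 1 scaled count limits their differences, which the pseudocount shrinks.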
